A study of Sus scrofa with 12 samples.

Results

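A set of 10 genes linked to glucose use and the low-oxygen response was followed in pig induced pluripotent stem cells. The genes are the glycolytic enzymes HK1, HK2, PFKP, ALDOA, PGK1, ENO1 and LDHA, the pyruvate dehydrogenase kinase PDK1, the mitophagy receptor BNIP3 and the growth factor VEGFA. They were taken by gene symbol, and all 10 were found among the 24358 genes of each RNA sequencing table. For 8 of them the symbol stood beside the identifier in the tables, and ALDOA (ENSSSCG00000032556) and LDHA (ENSSSCG00000013366) were matched through their identifiers. All 10 passed the filter on low values in both comparisons.

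The study placed a tdTomato reporter behind NANOG in pig pericyte-derived iPS cells, called PC-iPS cells, and sequenced 12 libraries in 4 groups of 3. The WT group was unmodified PC-iPS cells, and the knock-in group was NANOG tdTomato knock-in positive cells, both kept in LCDMV medium, which held LIF, a GSK3 inhibitor, dimethindene, minocycline and vitamin C. The Activin A and SB431542 groups were knock-in cells with the TGF-β family ligand Activin A or with SB431542, an inhibitor of its receptors, so both groups carry the reporter. The study's methods give their medium as LCDMV without LIF, while the labels name LCDMV for every library, and the doses of the sequenced libraries are not stated apart: the methods list 1 dose of SB431542 and more than 1 of Activin A. The knock-in cells were selected with puromycin, whose resistance gene was driven by a human PGK promoter, and sorted for tdTomato. They were mixed cultures, in which cells could carry the insertion on different alleles or not at all. Per the labels, feeder cells were allowed to attach and were left behind before RNA was taken. The study describes the knock-in lines nanog1, nanog2 and nanog3 as 3 of its independently transfected cultures, and the knock-in libraries carry the same names. The sources used here do not say whether the WT libraries, or those of each treatment, came from separate cultures, so for them the p-values measure only the spread between these libraries.

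Glycolysis turns glucose into pyruvate in the cytoplasm, and pluripotent stem cells are known for relying on it. Hexokinases trap glucose as glucose 6-phosphate, phosphofructokinase commits it to the pathway, aldolase splits the sugar, and phosphoglycerate kinase, enolase and lactate dehydrogenase act further down. When oxygen is low, the transcription factor HIF1A is stabilised and raises many of these enzymes together with PDK1, which holds pyruvate back from the mitochondria, BNIP3, which marks mitochondria for removal, and VEGFA, the ligand that makes blood vessels grow. The 10 genes are therefore often read together as a glycolytic and hypoxic signature.

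In RefSeq's annotation of Sscrofa11.1, HK2 lies on chr3:68155656-68231187 and ALDOA on chr3:18246036-18260167. ENO1 lies on chr6:69385879-69401664, VEGFA on chr7:38746393-38762282, LDHA on chr2:40814163-40827284 and PGK1 on chrX:62187472-62210321. HK1 (chr14:72383328-72460927) and BNIP3 (chr14:140362123-140371951) share a chromosome, PFKP lies on chr10:67022652-67082336 and PDK1 on chr15:78608394-78650958. These spans were matched by symbol, all 10 are protein coding, and the values below are for whole genes.

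Values are FPKM, fragments scaled to the length of each gene and the mapped reads of each library, so they can be set side by side between genes. FPKM totals ran from 364241 to 390320 over the 12 libraries and 15339 to 15827 genes were above 0. Read depth is unknown, but the WT libraries were the shallowest, at 0.551 to 0.624 of the depth of knock-in 1 against 0.717 to 0.959 for the other 8. WT libraries also gave 13.9 to 16.4% of their FPKM to the 13 mitochondrially encoded genes, against 9.43 to 11.5% in the other groups. Of the pluripotent markers, NANOG was at 17.9 ± 9.02 FPKM (SD, n = 3) in WT, 74.5 ± 24.8 in knock-in, 154 ± 43.0 with Activin A and 16.9 ± 8.89 with SB431542, POU5F1 has no row with its symbol, and TDGF1 was at or near 0 in the knock-in, Activin A and SB431542 groups. SOX2, NANOG and LIN28A were the 3 of 6 pluripotent markers tested that passed as higher in knock-in than in WT cells, beside 4.88% of all genes tested. They passed in 12, 10 and 14 of 16 alternative fits and in 3, 1 and 4 of the 6 without a library. SALL4, DNMT3B and EPCAM did not pass and had the opposite sign, with log2 fold changes of -0.013, -0.40 and -0.047. NANOG was the 1 of 6 higher with Activin A than with SB431542 (limma adjusted p = 0.042, or 0.011 with the replicate block). In either direction 0.136% of all genes tested passed, or 2.88% with the block. NANOG passed in 6 of 16 alternative fits and, of those without a library, only in the 1 without SB431542 replicate 2. With the replicate block LIN28A also passed, as lower, beside 1.21% of all genes. The median log2 fold change of the 6 was -0.16 here.

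The genes differed widely in level. Averaged over the 12 libraries, ENO1 was the most abundant at 505 FPKM, above 99.5% of the genes detected, followed by ALDOA at 261, PGK1 at 129 and HK1 at 101. BNIP3 (32.7), HK2 (23.7), VEGFA (23.0), PDK1 (18.4) and LDHA (18.3) lay between, in an order that depended on the group: in WT cells VEGFA (11.6) was the lowest of these 5 and PDK1 (26.1) was above HK2 (18.3) and LDHA (16.8). PFKP, the platelet-type phosphofructokinase, was the lowest at 1.14 FPKM, above 38.9% of the genes detected. By the median over the groups of the coefficient of variation, libraries of a group differed least for ENO1 (6.61%, range 4.52 to 10.6%). They differed most for PFKP (18.4%, range 7.77 to 34.4%). Within single groups the order could differ: in WT, HK2 was lower than ENO1, at 4.68%, and PDK1 higher than PFKP, at 32.3%.

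**Figure D1:**
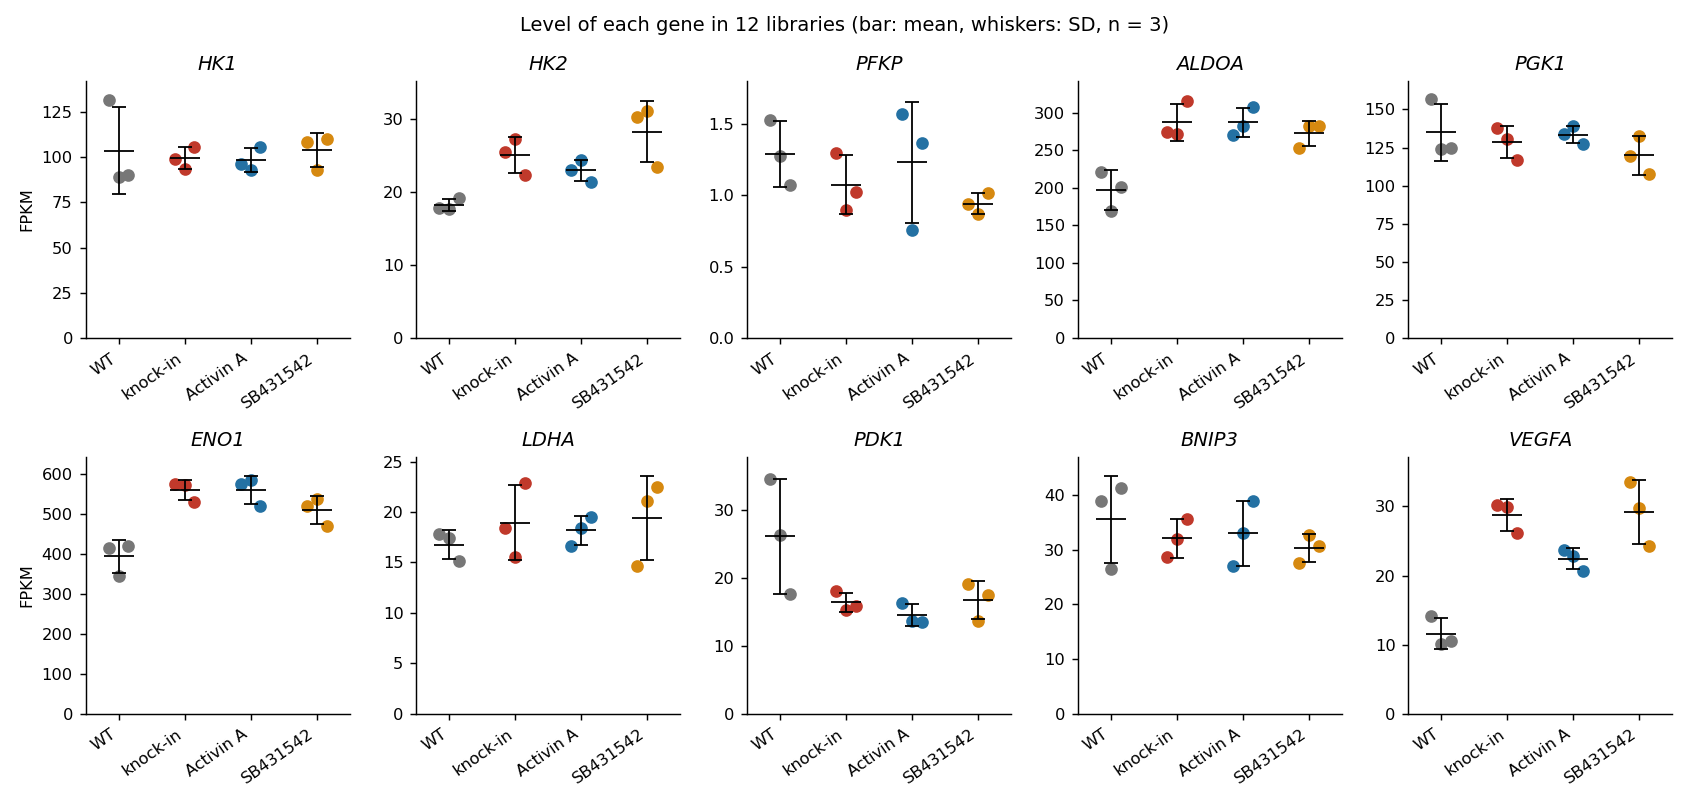
FPKM of each of the 10 genes in every library of the 4 groups, with the mean as a bar and the SD as whiskers (n = 3); each panel has its own axis from 0. WT libraries are lowest for HK2, ALDOA, ENO1 and VEGFA, with VEGFA at 10.1 to 14.2 FPKM in WT and at 20.7 to 33.6 elsewhere.

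The first comparison asked what differs between knock-in positive and WT cells. VEGFA, ALDOA and ENO1 were more abundant in knock-in cells, and the remaining 7 genes did not pass the test. VEGFA rose 2.48-fold in mean FPKM, ALDOA 1.46-fold and ENO1 1.42-fold. The test was limma on log2(FPKM + 1), fitted to all 14014 genes that passed the filter, and a gene passed at a p of at most 0.05 after Benjamini-Hochberg adjustment. The 3 of 10 that passed, all higher, stand beside 7.22% of all genes tested that passed in either direction and 4.88% that passed as higher. The median log2 fold change of the 10 was 0.059, against -0.0014 over all genes tested. In whole-culture RNA, a change in the cells that make a transcript and a change in transcript per cell cannot be told apart.

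VEGFA (ENSSSCG00000001695) was at 14.2, 10.1 and 10.5 FPKM in the WT libraries and at 30.3, 30.0 and 26.1 in the knock-in libraries. The lowest knock-in library was above the highest WT library, so the groups did not overlap. The log2 fold change was 1.25 (SE 0.15, 95% interval 0.91 to 1.60) with a limma adjusted p of 0.0088. VEGFA was the only one of the 10 also past an absolute log2 fold change of 1, a rule that 2.31% of all genes tested met. It passed in each of 16 alternative fits, with log2 fold changes of 1.17 to 1.40 and adjusted p of 0.0063 to 0.043.

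ALDOA, the main aldolase of most tissues, was at 221, 169 and 201 FPKM in WT and at 274, 272 and 315 in knock-in libraries. ENO1, the ubiquitous enolase, was at 415, 346 and 421 in WT and at 574, 573 and 530 in knock-in libraries. Neither gene's groups overlapped. The log2 fold change was 0.55 for ALDOA (SE 0.13, limma adjusted p = 0.043) and 0.51 for ENO1 (SE 0.11, adjusted p = 0.039). Both calls sat close to the threshold. ALDOA passed in 5 of 16 alternative fits and in 0 of the 6 that left out 1 library, and ENO1 in 6 of 16 and only without WT replicate 3 among those 6. With the mitochondrially encoded genes left out of the scaling the log2 fold changes were 0.50 and 0.46, with adjusted p of 0.060 and 0.056.

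HK2, the inducible hexokinase, was at 17.9, 17.7 and 19.2 FPKM in WT and at 25.6, 27.3 and 22.4 in knock-in libraries. These groups did not overlap either, but the limma adjusted p was 0.060 for a log2 fold change of 0.43 (SE 0.11). With TPM in place of FPKM it was 0.049. Non-overlap alone is common here: it held for 4 of the 10, all higher in knock-in, and for 35.7% of all genes tested, 19.0% as higher. The exact two-sided permutation test of 3 against 3 libraries cannot go below 0.1, the value it gave for HK2, ALDOA, ENO1 and VEGFA.

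PDK1 had the opposite sign. It was at 34.5, 26.3 and 17.6 FPKM in WT and at 18.0, 15.3 and 15.8 in knock-in libraries, and the groups overlapped because WT replicate 3 lay below knock-in replicate 1. The log2 fold change was -0.60 (SE 0.22, 95% interval -1.12 to -0.08) with a limma adjusted p of 0.13. Without WT replicate 3 it was -0.84, with an adjusted p of 0.029. Over the 6 fits that left out 1 library it ran from -0.84 to -0.38, with a limma adjusted p of up to 0.30, and passed in 1. BNIP3, at 38.9, 26.5 and 41.3 in WT and 28.6, 31.9 and 35.6 in knock-in libraries, also overlapped, with a log2 fold change of -0.12 and an interval of -0.54 to 0.29. With a library left out, the fold change of BNIP3 ran from -0.32 to -0.0072.

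The other enzymes also overlapped between WT and knock-in. HK1, the housekeeping hexokinase, was at 131, 89.0 and 90.1 FPKM in WT and at 98.8, 93.5 and 106 in knock-in libraries, so that its WT mean rests on 1 high library. PGK1 was at 157, 124 and 125 in WT and at 138, 130 and 117 in knock-in libraries, with the same WT library the highest. LDHA, the muscle-type lactate dehydrogenase subunit, was at 17.8, 17.4 and 15.1 in WT and at 18.4, 15.5 and 22.9 in knock-in libraries. The 95% intervals of the log2 fold change were -0.41 to 0.33 for HK1, -0.35 to 0.22 for PGK1, -0.21 to 0.52 for LDHA and -0.46 to 0.17 for PFKP. The upper end of each lies below 0.91, the lower end of VEGFA's interval. With a library left out, the log2 fold change ran from 0.014 to 0.28 for LDHA and from -0.22 to -0.069 for PFKP. A PFKP of 1.53, 1.28 and 1.07 FPKM in WT and 1.3004, 0.899 and 1.03 in knock-in libraries is near the added 1, which shrinks its fold change.

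**Figure D2:**
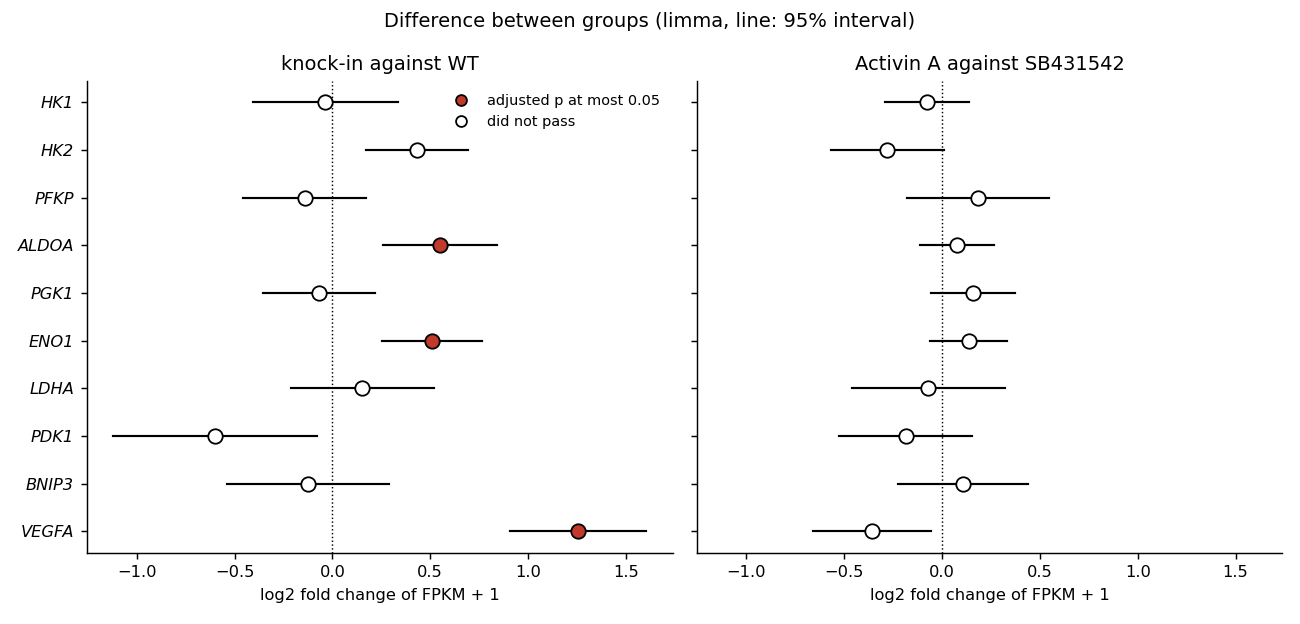
log2 fold change of FPKM + 1 with its 95% interval from limma for each gene, for knock-in against WT on the left and Activin A against SB431542 on the right; filled points have an adjusted p of at most 0.05. VEGFA (1.25), ALDOA (0.55) and ENO1 (0.51) are filled on the left, and no point is filled on the right.

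Markers of other cells moved in the same comparison. Of 11 pericyte and fibroblast markers tested, PDGFRB, ACTA2 and DCN passed as higher in knock-in cells and none as lower, beside 4.88% of all genes tested that passed as higher. COL1A1 (1.13 FPKM in WT and 0.62 in knock-in cells) and DES (0.42 and 0.032) were at lower values in knock-in cells with no overlap. No overlap in either direction held for 35.7% of all genes tested. For DES the nearest libraries were WT replicate 3 at 0.070 and knock-in replicate 1 at 0.062 FPKM. The limma adjusted p of COL1A1 was 0.16, and DES was below the filter and was not tested. The sum over the 14 listed was 26.3 to 28.5 FPKM in WT and 60.4 to 77.8 in knock-in libraries. PDGFRB and ACTA2 passed in all 16 alternative fits and DCN in 11, and of the 6 without a library DCN passed in 2 (without WT replicate 3 or knock-in replicate 1). FAP was at 0 in every library, LUM was under 0.1 FPKM in each group, and DES was under 0.1 in the knock-in, Activin A and SB431542 groups. None of 3 endothelial and blood markers tested passed, and their list summed to 1.60 to 1.78 FPKM in WT and 2.00 to 2.49 in knock-in libraries. The part of these markers, and of the shallower WT libraries, in the VEGFA, ALDOA and ENO1 values was not tested.

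The second comparison asked what differs between knock-in cells with Activin A and with SB431542. None of the 10 genes passed: limma found 0 adjusted p of at most 0.05, where 0.136% of the 13999 genes tested passed, and 1 gene, VEGFA, was under 0.05 before adjustment. The log2 fold changes of the 10 ran from -0.36 for VEGFA to 0.18 for PFKP, with a median of 0.0023, against -0.0040 over all genes tested. Libraries of these groups pair by number: same-numbered libraries deviated from their group means together, with correlations of 0.400 to 0.587. With the number as a block, 403 genes passed in place of 19, or 2.88% of those tested, and of the 10 still 0.

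VEGFA was at 23.7, 22.8 and 20.7 FPKM with Activin A and at 33.6, 29.8 and 24.3 with SB431542. It was the only one of the 10 whose groups did not overlap, which held for 20.0% of all genes tested, 10.8% as lower. Its log2 fold change was -0.36 (SE 0.13, 95% interval -0.66 to -0.06), with a limma adjusted p of 0.32, or 0.076 with the replicate block. Activin A gave the lower value in 3 of 3 numbered pairs, by differences of -0.48, -0.37 and -0.22 on the log2 scale. The share of all genes with 3 of 3 pairs on the same side was not counted. Such pair counts, here and below, are therefore read only as levels. In the same comparison ACTA2 was lower with Activin A, at 8.32 against 19.4 FPKM. Its log2 fold change was -1.13, with a limma adjusted p of 0.035, or 0.014 with the replicate block. ACTA2 passed in 10 of 10 alternatives that kept every library. The call was lost without any 1 of the 6 libraries, in fits without the block (log2 fold change -1.21 to -1.07, adjusted p 0.090 to 0.16). The sum of the pericyte and fibroblast list was 71.98 to 97.3 FPKM with Activin A and 57.2 to 63.6 with SB431542. The other 10 genes of that list that were tested did not pass, though COL1A2 and COL3A1 passed as higher with the replicate block, beside 2.88% of all genes tested that then passed in either direction. The endothelial and blood list summed to 1.61 to 2.18 and 2.23 to 2.92 FPKM with 0 of 3 passing. The part of these markers in the VEGFA values was not tested.

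HK2 followed the same order, at 23.1, 24.4 and 21.5 FPKM with Activin A and 30.3, 31.1 and 23.5 with SB431542. Here SB431542 replicate 3 fell among the Activin A libraries. The log2 fold change was -0.28 (limma adjusted p = 0.41, or 0.12 with the block), and the Activin A library was lower in 3 of 3 pairs. HK1 was also lower in 3 of 3, by log2 differences of -0.17, -0.0015 and -0.056.

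ENO1, PGK1 and ALDOA had the opposite sign, with none past the threshold. ENO1 was at 574, 584 and 519 FPKM with Activin A and 521, 537 and 469 with SB431542, with paired log2 differences of 0.14, 0.12 and 0.14. PGK1 was at 134, 139 and 128 with Activin A and 119, 133 and 107 with SB431542. Each of these 3 genes was higher with Activin A in 3 of 3 pairs, for ALDOA by log2 differences of 0.098, 0.0042 and 0.12. The limma adjusted p of ENO1, PGK1 and ALDOA with the block were 0.14, 0.17 and 0.37. The 4 remaining genes, LDHA, PDK1, BNIP3 and PFKP, had pairs of both signs.

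**Figure D3:**
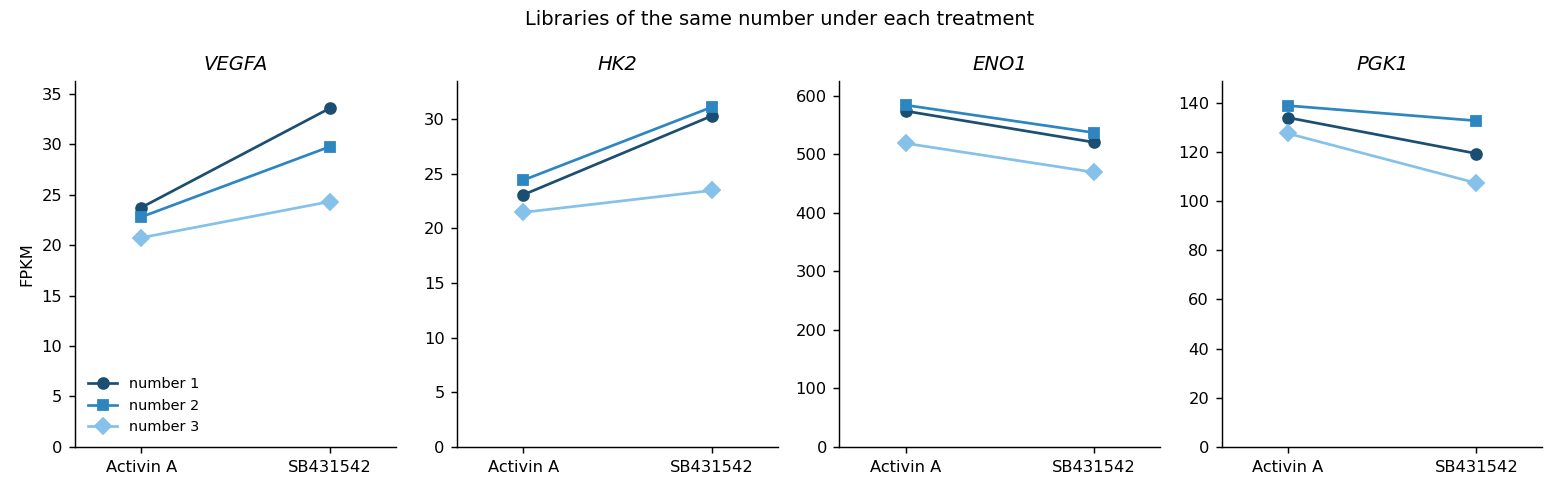
FPKM of VEGFA, HK2, ENO1 and PGK1 with Activin A and with SB431542, with a line joining libraries of the same number and axes from 0. Every line rises toward SB431542 for VEGFA and HK2 and falls for ENO1 and PGK1, and none of the 4 genes passed the test.

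Across all 4 groups, levels were set side by side without a test, since the tables were fitted separately. For HK2, ALDOA and ENO1 the WT group was the lowest and did not overlap with the next, while the 3 groups of knock-in cells overlapped with their neighbours. VEGFA had a further step: SB431542 (29.2 ± 4.65 FPKM, SD, n = 3) and knock-in (28.8 ± 2.32) overlapped, Activin A (22.4 ± 1.53) lay below the knock-in range and WT (11.6 ± 2.26) lay below Activin A. Such steps over 4 groups were not counted for all genes, so they are read only as levels. Between 2 groups, 35.7% of all genes tested did not overlap in knock-in against WT, 19.0% as higher. In Activin A against SB431542 it was 20.0%. PDK1 ran from 26.1 ± 8.45 in WT down to 14.5 ± 1.62 with Activin A, and every neighbouring pair of groups overlapped. Neighbours also overlapped throughout for HK1, PFKP, PGK1, LDHA and BNIP3. Summed over the 7 glycolytic enzymes, the level was 865 ± 99.1 FPKM in WT, 1119 ± 9.67 in knock-in, 1120 ± 20.4 with Activin A and 1053 ± 41.2 with SB431542, a sum carried mostly by ENO1 and ALDOA.

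Several of the 10 belong to families of related genes, and their shares of the family were worked out after the values had been seen. LDHA gave only 2.35 to 2.72% of the lactate dehydrogenase FPKM as group means, the rest being almost wholly LDHB, the heart-type subunit, whose 2 rows were at 639 and 61.1 FPKM in WT and 655 and 64.5 in knock-in cells. The counting could split reads between such close copies, so each row's level is uncertain to that extent. PFKP likewise gave 1.63 to 2.21% of phosphofructokinase as group means, behind the liver type PFKL and the muscle type PFKM. ENO1 made up 95.4 to 98.1% of the enolases and ALDOA 97.3 to 99.5% of the aldolases as group means. HK2 held 14.8 ± 2.71% of hexokinase FPKM in WT and 19.7 ± 2.55% in knock-in cells. Between WT and knock-in the ranges did not overlap for HK2, nor for ENO1, whose share was also the higher in knock-in cells (98.1 against 95.4%), nor for PFKP, whose share was the lower (1.65 against 2.21%), with an exact two-sided permutation p of 0.1 for each.

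VEGFA showed the widest shift of share. It was 46.2 ± 3.71% of the VEGF ligand FPKM in WT, 70.5 ± 3.12% in knock-in, 63.9 ± 2.05% with Activin A and 71.1 ± 2.58% with SB431542. VEGFB was at 12.7 FPKM in WT, above VEGFA at 11.6 there, and at 11.13 in knock-in cells, below VEGFA, and did not pass. Within each table the VEGFA share did not overlap between groups, and the exact two-sided permutation p was 0.1 in both, the smallest that 3 against 3 allows. PDK1 was 73.9 ± 8.10% of the pyruvate dehydrogenase kinases in WT and 62.8 ± 5.37% in knock-in cells, and these ranges overlapped.

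**Figure D4:**
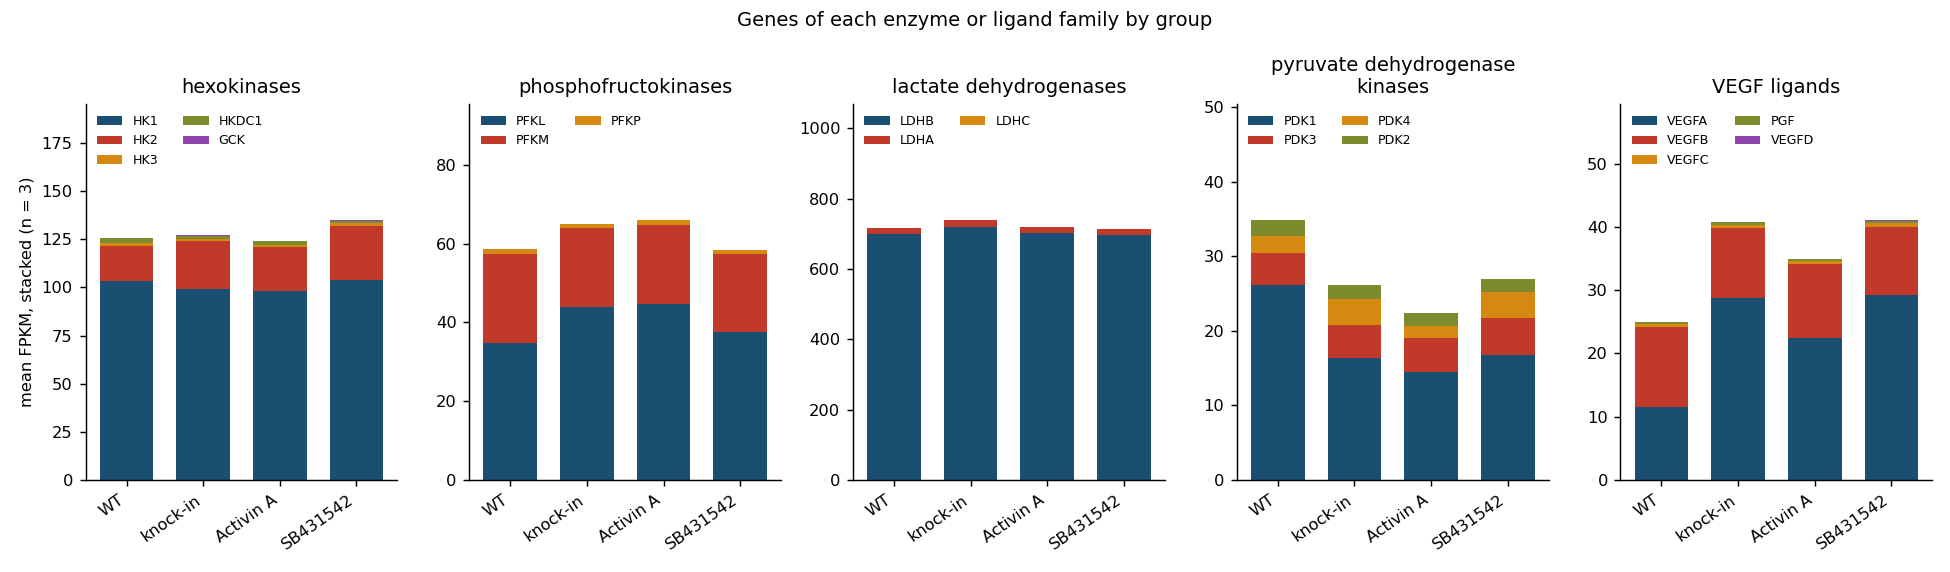
Mean FPKM (n = 3) of the genes of 5 families, stacked, in each group; axes start at 0. LDHB and PFKL fill most of their bars, while VEGFA stands at 11.6 FPKM in the WT bar and 28.8 in the knock-in bar, with VEGFB at 12.7 and 11.13.

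The rest of the pathway was followed through lists of related genes. Of 16 other glycolytic enzymes tested between knock-in and WT, in 17 rows since LDHB has 2, 1 was higher and none was lower, a share near the 4.88% of all genes tested that passed as higher. It was TPI1, triose phosphate isomerase, at 67.1 ± 4.33 FPKM in WT and 94.7 ± 8.27 in knock-in cells (log2 fold change 0.49, limma adjusted p = 0.036). It passed in 8 of 16 alternative fits. GAPDH was at 1351 FPKM in WT and 1714 in knock-in cells (adjusted p = 0.086) and PKM, the pyruvate kinase, at 439 and 546 (0.075), neither with overlapping groups and neither past the threshold. PGAM1 was at 298 in WT and 246 in knock-in cells (0.29), and GPI at 77.3 and 87.6 (0.48). The list's median log2 fold change was 0.04.

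In each of 3 short lists a single gene passed, as higher, beside 4.88% of all genes tested, and these counts are read only for the genes themselves. PFKFB3, which makes the fructose bisphosphate that switches phosphofructokinase on, was the 1 gene of its list of 4 tested that passed. It was at 2.10 ± 0.48 FPKM in WT and 7.70 ± 1.23 in knock-in cells, with a log2 fold change of 1.49 (limma adjusted p = 0.0092), and it passed in 16 of 16 alternative fits. MPC1, a subunit of the mitochondrial pyruvate carrier, was the 1 of 12 genes of pyruvate entry that passed, at 46.7 ± 3.63 and 74.0 ± 3.36 FPKM (0.65, adjusted p = 0.016; 14 of 16). PGD, an enzyme of the pentose phosphate branch, was the 1 of 6 there, at 61.8 ± 9.11 and 103 ± 12.9 (0.73, adjusted p = 0.031; 9 of 16). None of 4 transport genes passed, and the glucose transporters SLC2A1 and SLC2A3 have no row with their symbols.

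Among 28 other HIF target genes tested, 1 was higher and 1 lower in knock-in cells, a share close to the 7.22% of all genes tested that passed in either direction, so the count is no result about the list. KDM3A, a histone demethylase, was at 12.4 ± 2.27 FPKM in WT and 22.4 ± 3.65 in knock-in cells (log2 fold change 0.80, limma adjusted p = 0.035). VLDLR, a lipoprotein receptor, was at 11.2 ± 1.95 and 5.22 ± 1.50 (-0.99, adjusted p = 0.037). Each passed in 9 of 16 alternative fits. The list's median was 0.08, with genes on both sides of 0. HIF1A itself was at 83.1 ± 14.0 FPKM in WT and 59.6 ± 2.17 in knock-in cells (-0.46, adjusted p = 0.080), and no gene of the 6 HIF factors and oxygen sensors tested passed. EPAS1, the second HIF subunit of this kind, was below the filter. Of 6 other VEGF ligands and receptors tested, 0 passed.

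With Activin A against SB431542, 0 genes passed in each of these metabolic lists without the replicate block. With it 3 passed, all lower with Activin A, where 1.21% of all genes tested passed as lower. The median log2 fold change of the other HIF targets was -0.19, against -0.0040 over all genes tested. In the other metabolic lists the medians ran from -0.028 to 0.072. Whether these medians differ was not tested. STC2, a secreted glycoprotein, was 1 of 2 among the 28 other HIF targets, at 16.0, 17.4 and 13.3 FPKM with Activin A and 32.0, 35.1 and 20.4 with SB431542 (log2 fold change -0.84, limma adjusted p = 0.20, or 0.033 with the block). ANGPTL4, an inhibitor of lipoprotein lipase, was the other, at 1.34, 1.87 and 1.15 FPKM with Activin A and 4.64, 7.66 and 2.58 with SB431542 (-1.20, adjusted p = 0.21, or 0.048). PDK4, the kinase related to PDK1, was the 1 of 12 genes of pyruvate entry, at 1.97, 1.63 and 1.14 FPKM with Activin A and 4.14, 2.93 and 3.39 with SB431542 (-0.80, adjusted p = 0.15, or 0.046). For each of the 3 genes every SB431542 library was above every Activin A library, which held for 10.8% of all genes tested. The 3 were named because they passed with the block, so this is no added support. GAPDH was at 1683 and 1693 FPKM, HIF1A at 50.0 and 53.4, and PKM at 573 and 498, the last without overlap (limma adjusted p = 0.26). The largest gap among the glycolytic enzymes, singled out after its values were seen, was in ALDOC, the brain-type aldolase, at 1.49 ± 0.44 FPKM with Activin A and 7.45 ± 3.14 with SB431542 (log2 fold change -1.69, limma adjusted p = 0.13, or 0.070 with the block).

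**Figure D5:**
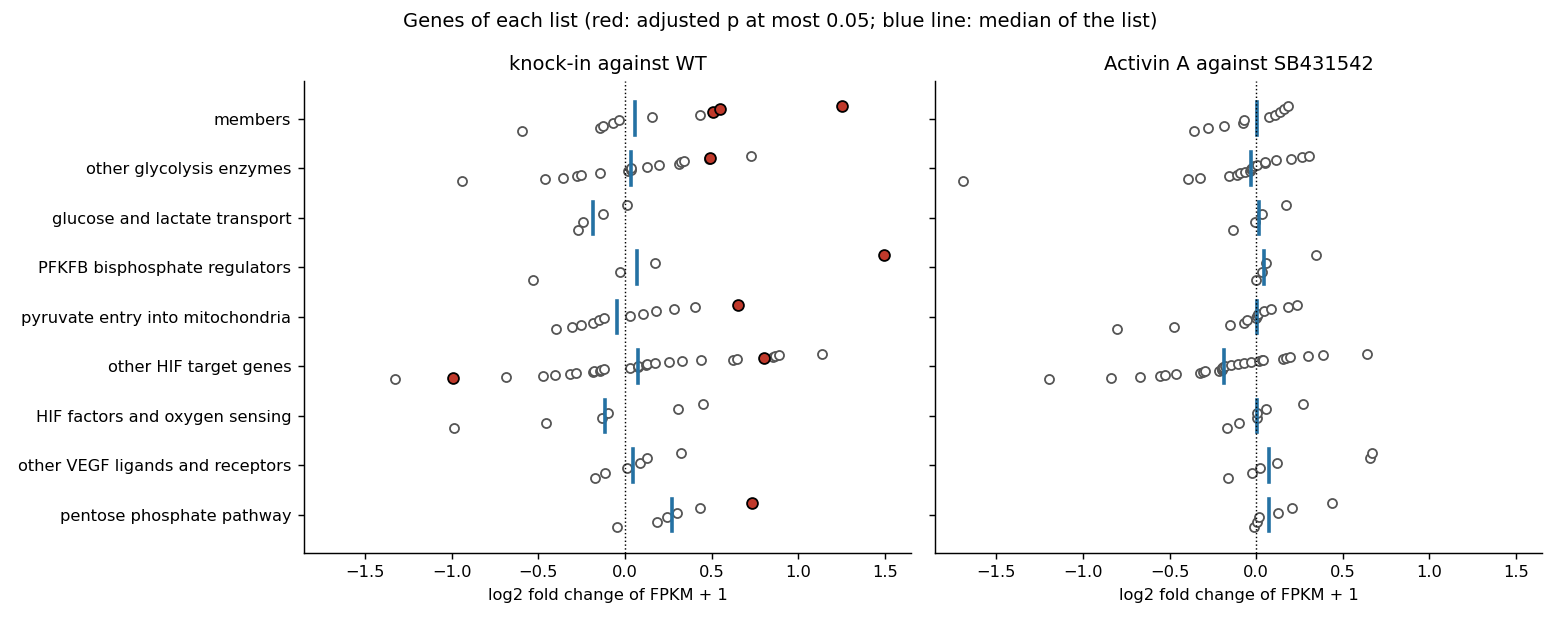
log2 fold change of FPKM + 1 of every tested gene in the 10 and in 8 lists of related genes, for each comparison; filled points have an adjusted p of at most 0.05 and the upright line is the median of the list; the fits have no replicate block. Filled points are scattered over the lists on the left, with PFKFB3 (1.49) and VEGFA (1.25) the farthest to the right, and there is none on the right.

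The genes whose levels ran most like these over the 12 libraries were taken from 10501 genes by Pearson's r of log2(FPKM + 1), as a description. For VEGFA they were OAZ1 (r = 0.977), ACTA2 (0.963) and FGF19 (0.961). For BNIP3 they were PLA2G6 (0.938), PCDHGB1 (0.929) and ZIC4 (0.907), and for the mean of the 7 enzymes DACT3 (0.947), ILK (0.945) and EXT2 (0.923). The libraries share groups and depths, and with each library taken as a deviation from its group mean other genes led: DAZAP1, ACO1 and PDIA5 for VEGFA, with r of 0.992, 0.972 and 0.965.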

How the data were processed

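RNA was sequenced in 12 libraries, 3 a group. The authors trimmed reads, aligned them to the pig assembly Ssc11.1 with HISAT2, computed FPKM with StringTie from Ensembl's annotation, and deposited these values for 24358 genes in 2 tables. Counts that the authors made with featureCounts and tested with DESeq2 were not used here. Versions in the submitters' processing notes are HISAT2 2.0.4, StringTie 1.3.3 and featureCounts 1.6.4. FPKM holds no counts, so read depth is unknown, and relative depth was estimated from steps between values under 0.3 FPKM. Groups came from sample titles. Symbols came from the tables (17451 genes) or by identifier (965). The genes and lists were chosen with earlier results of these data known.

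Genes with at least 0.1 FPKM in 3 of 6 libraries were kept, and limma 3.58.1 with a variance trend (R 4.3.3) was run on log2(FPKM + 1) within each table, never across them. P-values were adjusted by Benjamini-Hochberg over all genes tested. limma was used because FPKM are not counts. On simulated data with 200 genes changed by a log2 fold change of 1, 120 were recovered in knock-in against WT and 148 in Activin A against SB431542. False calls were 3 and 10 genes. The changed genes were drawn only from those of higher mean level, and the noise was independent between libraries. The recovery therefore does not cover low genes such as PFKP or libraries paired by number.

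Named besides the 10 were up to 4 genes of each list with the largest change among those passing in each comparison, and GPI, TPI1, GAPDH, PGAM1, PKM, LDHB, SLC2A1, SLC2A3, HIF1A and EPAS1 in any case; isozymes, ALDOC and genes passing with the block alone were added after values were seen. The pairing of Activin A and SB431542 libraries comes from their replicate numbers, with every same-number correlation over 0.1; in knock-in against WT these were -0.018 to 0.094. Alternatives were a pseudocount of 0.1 or 0.01, a filter of 1 FPKM or none, rescaling to TPM, by median ratios or by quantiles, scaling without mitochondrial genes, no variance trend, the replicate block and leaving out each library; the block was applied to the lists after the data were seen. Promoter and protein sequences were not used here. Plots were made in Python 3.11.15 with matplotlib 3.10.9.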

Additional observations from a re-analysis of the deposited data

How the results depend on the processing

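VEGFA kept its direction and its side of the threshold in all 16 alternatives of knock-in against WT, and none of the 10 genes passed in any of 16 alternatives of Activin A against SB431542. In knock-in against WT, 1 of the 10 passed in place of 3 with no filter, with quantile scaling, without mitochondrially encoded genes, with no variance trend and with the replicate block, 4 passed with TPM, which added HK2, and 1 to 3 passed with a library left out. With each library dropped in turn (6 fits), PFKFB3 passed in 6, MPC1 in 4 (not without knock-in replicate 1 or 2), TPI1 and PGD in 2 (without WT replicate 3 or knock-in replicate 3), KDM3A in 1 (without WT replicate 2) and VLDLR in 1 (without knock-in replicate 3); with Activin A against SB431542, ACTA2 passed in 0 of 6. Counts over all genes moved more. Genes that passed went from 1012 to 585 with no filter and 360 with the replicate block, and ran from 156 (without knock-in replicate 1) to 1432 (without WT replicate 3) with a library left out. Genes past both thresholds went from 324 to 538 and 501 with pseudocounts of 0.1 and 0.01 and to 199 with no filter, and ran from 145 to 446. In knock-in against WT the numbers do not pair the libraries, and not every library correlated best with its own number. With Activin A against SB431542, 19 genes passed, and 8 with a pseudocount of 0.01, 11 with no filter, 5 with a filter of 1 FPKM, 10 with no variance trend, 403 with the replicate block, and 0 to 5 with a library left out. Past both thresholds were 13, and in the same order 8, 5, 5, 7, 99 and 0 to 5. The block changed no call among the 10 there, and in the lists it added STC2, ANGPTL4, PDK4, LIN28A, COL1A2 and COL3A1. Signs turned in 5 cases, none of them past the threshold: HK1 in knock-in against WT without WT replicate 1 (0.15) or knock-in replicate 2 (0.0064), PGK1 without WT replicate 1 (0.043), BNIP3 in Activin A against SB431542 without Activin A replicate 3 (-0.016) and LDHA without SB431542 replicate 3 (0.043). With a library left out, these ran from -0.13 to 0.15 for HK1, -0.12 to 0.043 for PGK1, -0.016 to 0.24 for BNIP3 and -0.25 to 0.043 for LDHA. The cause was not tested, beyond the fewer libraries in fits that left one out and the more genes tested with no filter. Low genes such as PFKP are limited by the unknown depth.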

Other observations

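Library numbers also matched between the tables. The deviations of the Activin A and SB431542 libraries from their group means were correlated with those of the knock-in libraries across genes. The 6 pairs of libraries with the same number had correlations of 0.506 to 0.664, and the 12 pairs with different numbers had -0.498 to -0.064. Genes are not independent replicates, and the values carry no test.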
